A study of Mus musculus with 2 samples.

Results

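The transcription factors described here are those that pattern and maintain the ureteric epithelium of the kidney: Gata2, Gata3, Emx2, Tfcp2l1, Elf5, Grhl1, Grhl2, Elf3, Ehf and Ovol1. These 10 genes, taken from a fixed list and found by Ensembl identifier, are 10 of the 43346 mouse genes in the deposited gene tables, and 39 transcripts are listed for them. Total RNA was sequenced from healthy kidneys of B6NCrl mouse embryos at embryonic day 16.5. The series holds 1 group of 2 libraries, labelled as biological replicates 1 and 2, and no allele, agent or second condition. Each library is a pool of embryos of both sexes. The pool of replicate 2 came from 41 embryos, and the labels of replicate 1 state no number. Whole kidney was used, so a level is an average over ureteric, nephron, stromal, vascular and blood cells. In such bulk samples, fewer cells of a type and less RNA per cell cannot be told apart.

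The ureteric epithelium arises from the nephric duct. Its tips branch in response to the growth factor GDNF, which signals through the receptor Ret and its co-receptor Gfra1, and its trunks mature into collecting ducts and, below the kidney, into the ureter lined by urothelium. Zinc-finger factors of the GATA family and the homeobox factor Emx2 act early, in the duct and the bud. Tfcp2l1 and Elf5 act in the maturing collecting duct, where principal cells reabsorb water and salt and intercalated cells move acid and base. The grainyhead-like factors (Grhl1, Grhl2), the epithelium-specific ETS factors (Elf3, Ehf) and Ovol1 are used by many epithelia of the body, where they are known for junction, barrier and keratin genes.

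Expected counts summed to 34261328 on mouse genes in replicate 1 and to 37900132 in replicate 2, and external spike-in RNAs took 2.82% and 2.08% of all counts. Over 15363 genes at 1 CPM (counts scaled to library size) or more the biological coefficient of variation between the pools was 0.126. Markers of neighbouring tissues differed between the pools. Sftpc, a surfactant protein gene of lung, was at 0.49 TPM in replicate 1 and 225.2 TPM in replicate 2 (8 and 3959 counts), Sftpb was at 0.06 and 4.56 TPM, and Nkx2-1, a factor of lung and thyroid, had 0 and 68 counts. The 7 genes of the lung and gut list summed to 1.18 TPM in replicate 1 and 232.2 TPM in replicate 2, with Cdx2 at 0 counts in both. The 7 urothelial genes summed to 80.2 TPM in replicate 1 and 109.3 TPM in replicate 2, and the 7 chromaffin and sympathetic genes to 53.4 and 32.8 TPM. The part of lung, ureter and adrenal cells in the levels below was not tested, and leaving out either library is given where a result turns on it.

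Regulatory sequences of members are shown first. The transcript models of most members start at more than 1 site, though not those of Tfcp2l1 and Ovol1. Some of the transcript results below turn on those starts. RefSeq windows of 250 bases upstream of a start (build GRCm38.p6) were found for 7 of the members, with 10 windows in all. Ehf, Grhl2 and Ovol1 had no window. Below are the parts of 5 windows that lie outside annotated exons of the gene, written 5′ to 3′ on the gene's strand. Capitals mark matches, on either strand, to the GATA letters AGATAA or TGATAA, the grainyhead letters CCGGTT, the ETS letters CCGGAA or GAGGAA, or the TATA letters TATAAA. The first pair belongs to the member with the highest level and to the collecting duct factor Tfcp2l1. The other windows belong to a start of Gata2 that few reads were assigned to and to both starts of Grhl1.
Gata3, upstream of the start of Gata3-201, chr2:9878601-9878850, minus strand: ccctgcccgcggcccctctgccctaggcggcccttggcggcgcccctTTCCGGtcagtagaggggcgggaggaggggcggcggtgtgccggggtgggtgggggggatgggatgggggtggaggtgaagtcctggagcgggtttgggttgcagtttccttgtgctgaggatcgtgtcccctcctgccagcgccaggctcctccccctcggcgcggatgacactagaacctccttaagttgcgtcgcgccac
Tfcp2l1, upstream of its start, chr1:118627695-118627944, plus strand: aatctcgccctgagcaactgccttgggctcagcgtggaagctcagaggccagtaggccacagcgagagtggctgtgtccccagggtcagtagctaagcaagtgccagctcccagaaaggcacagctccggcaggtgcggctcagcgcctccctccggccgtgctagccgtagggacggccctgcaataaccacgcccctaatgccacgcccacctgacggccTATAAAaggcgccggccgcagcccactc
Gata2, upstream of the distal start (Gata2-202), chr6:88193641-88193890, plus strand: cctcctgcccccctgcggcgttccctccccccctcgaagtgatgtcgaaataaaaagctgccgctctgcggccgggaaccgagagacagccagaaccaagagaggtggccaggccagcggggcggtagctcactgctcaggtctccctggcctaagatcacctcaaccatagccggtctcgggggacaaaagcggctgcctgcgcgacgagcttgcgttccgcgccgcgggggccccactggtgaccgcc
Grhl1, upstream of the first RefSeq start (at Grhl1-202), chr12:24572037-24572282, plus strand: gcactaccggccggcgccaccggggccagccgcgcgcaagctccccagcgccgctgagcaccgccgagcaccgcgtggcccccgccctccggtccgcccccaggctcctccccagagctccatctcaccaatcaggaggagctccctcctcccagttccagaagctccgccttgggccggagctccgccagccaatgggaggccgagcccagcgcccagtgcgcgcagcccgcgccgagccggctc
Grhl1, upstream of the second RefSeq start (near Grhl1-201), chr12:24580469-24580718, plus strand: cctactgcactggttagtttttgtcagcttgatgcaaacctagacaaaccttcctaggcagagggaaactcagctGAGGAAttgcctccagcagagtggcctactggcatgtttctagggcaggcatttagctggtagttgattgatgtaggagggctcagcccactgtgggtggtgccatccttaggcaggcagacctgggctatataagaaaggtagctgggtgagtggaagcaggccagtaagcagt

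In these stretches the Gata3 window held 1 ETS match, 203 bases before the start, and the second Grhl1 window held 1 ETS match, 175 bases before the RefSeq start, which lies just upstream of the GENCODE start of Grhl1-201. The Tfcp2l1 window held 1 TATA match, whose first letter lies 28 bases before the start. No GATA or grainyhead letters were found in the 5 stretches. The parts outside exons of the Elf3 window (154 bases) and of the window at the second Elf5 start (244 bases) held none of the letters and are not shown. The full 250 bases at Elf3, part of which is annotated exon, held 1 grainyhead match, and no other full window of the members did. Of 32851 RefSeq windows of the same length, 32.7% held an ETS match, 16.6% a GATA match, 5.62% a grainyhead match and 12.4% a TATA match, so each is common by letters alone. The TATA letters were added to the search after the windows had been seen. The windows of the first Grhl1 start and of Gata3 had 75.6% and 70.0% G or C, and the window of the second Grhl1 start had 52.0%, against a median of 52.4% over all windows. A match describes letters and not a bound site.

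On GRCm38 (GENCODE M21) the members lie on 6 chromosomes. Gata3 spans 9857078 to 9890034 of chromosome 2 on the minus strand, Ehf 103263433 to 103303278 on the minus strand and Elf5 103411688 to 103450989 on the plus strand of the same chromosome. Gata2 spans 88193891 to 88207032 of chromosome 6, on the plus strand. Elf3 spans 135253575 to 135258568 of chromosome 1 on the minus strand, and Tfcp2l1 118627945 to 118685168 on the plus strand. Emx2 spans 59458372 to 59465357 of chromosome 19 on the plus strand, and Ovol1 5549136 to 5560646 on the minus strand. Grhl1 spans 24572283 to 24617391 of chromosome 12 and Grhl2 37233036 to 37363569 of chromosome 15, both on the plus strand.

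All 10 members were detected, which means at least 1 TPM (the deposited level per transcript length, scaled to the library) in both libraries. Of all protein-coding genes 62.2% met that rule, and of all mouse genes 34.7%. The members summed to 271.1 TPM in replicate 1 and to 249.99 TPM in replicate 2. Their median was 26.0 TPM in replicate 1 and 23.2 TPM in replicate 2, and the median detected coding gene stood at 20.7 TPM in both. The members spread widely: the highest, Gata3, was 43.3 times the lowest, Grhl1, in replicate 1 and 37.8 times in replicate 2. Gata3 alone held 35.4% of the summed TPM in replicate 1 and 34.5% in replicate 2.

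**Figure D1:**
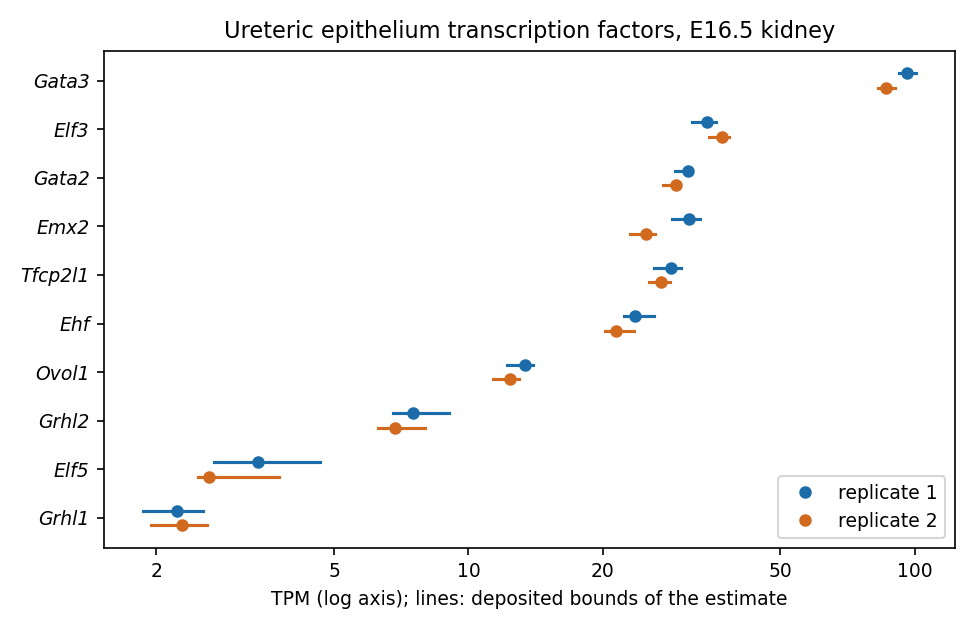
Level of each member in TPM on a log axis, in order of the mean, for replicate 1 and replicate 2 (points), with the lower and upper TPM bounds deposited by the authors (lines). Gata3 stands alone near 90 TPM, 5 members lie between 21.4 and 37.0 TPM, and Elf5 and Grhl1 lie lowest; only for Gata3 and Emx2 do the lines of the libraries stay apart.

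Among the bud and duct factors, Gata3 was at 96.1 TPM in replicate 1 and 86.3 TPM in replicate 2 (91.2 ± 6.95, SD, n = 2), from 6423 and 6279 expected counts. Gata3 is needed for outgrowth of the nephric duct and keeps Ret on in it, and loss of 1 copy in humans gives kidney malformation with deafness and hypoparathyroidism. Its mean lay at percentile 86.1 of detected coding genes. Gata2, which acts in the nephric duct and the collecting duct and is also a factor of endothelium and blood progenitors, was at 31.0 TPM in replicate 1 and 29.2 TPM in replicate 2 (30.1 ± 1.32). Emx2, without which the mouse ureteric bud enters the mesenchyme but does not branch, was at 31.3 TPM in replicate 1 and 25.0 TPM in replicate 2 (28.1 ± 4.45). Gata3 thus stood well above the rest of its class, at 3.10 times Gata2 in replicate 1 and 2.96 times in replicate 2. The class had a median of 31.3 TPM in replicate 1 and 29.2 TPM in replicate 2.

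The pair that marks duct maturation was far apart. Tfcp2l1, which in mouse is needed for the mix of principal and intercalated cells in the collecting duct, was at 28.4 TPM in replicate 1 and 27.0 TPM in replicate 2 (27.7 ± 1.01), from 5453 and 5959 counts. Elf5, an ETS factor known in kidney for principal cells and elsewhere for mammary alveoli and trophoblast, was at 3.37 TPM in replicate 1 and 2.62 TPM in replicate 2 (2.995 ± 0.530), from 118 and 141 counts. Elf5 lies 108.4 kb from Ehf on chromosome 2. Ehf was 7.01 times Elf5 in replicate 1 and 8.18 times in replicate 2.

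The broad epithelial factors ran from the second place in the order to the last. Elf3, an ETS factor of simple and lining epithelia, was at 34.2 TPM in replicate 1 and 37.0 TPM in replicate 2 (35.6 ± 1.99). Ehf, its close relative, was at 23.6 TPM in replicate 1 and 21.4 TPM in replicate 2 (22.5 ± 1.55). Both ETS factors stood above the median detected gene in each library. Ovol1, a zinc-finger repressor whose loss in mice can give kidney cysts, was at 13.4 TPM in replicate 1 and 12.4 TPM in replicate 2 (12.9 ± 0.700). Grhl2, which in the mouse collecting duct keeps tight junctions and the barrier, was at 7.50 TPM in replicate 1 and 6.83 TPM in replicate 2 (7.17 ± 0.474). Grhl1, known for desmosome genes in skin, was at 2.22 TPM in replicate 1 and 2.28 TPM in replicate 2 (2.25 ± 0.0424). The class had a median of 13.4 TPM in replicate 1 and 12.4 TPM in replicate 2. Ovol1, Grhl2 and Grhl1 lay below the median detected gene, at percentiles 37.6, 24.5 and 7.26 of detected coding genes.

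In the order of the means, Gata3, Elf3, Gata2, Emx2, Tfcp2l1, Ehf, Ovol1, Grhl2, Elf5 and Grhl1, 7 of 9 neighbouring pairs had ranges over the libraries that stayed apart. Gata2 against Emx2 and Emx2 against Tfcp2l1 did not: Emx2 was above Gata2 in replicate 1 and below Tfcp2l1 in replicate 2. For 5 of the 9 pairs the deposited bounds were apart in both libraries as well. With 2 libraries the smallest p of an exact paired test is 0.5, so no order was tested. Posterior mean TPM and FPKM gave the same order. By CPM, which is not per length, 6 members took another place; Tfcp2l1, whose main transcript is 9269 bases long, then came second, with 159.2 CPM in replicate 1 and 157.2 CPM in replicate 2.

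Within the GATA family, Gata3 held 70.8% of the summed TPM in replicate 1 and 68.6% in replicate 2, and Gata2 held 22.9% and 23.2%. The 4 other paralogs were low. Gata6, a factor of endoderm and heart, was at 4.18 TPM in replicate 1 and 5.65 TPM in replicate 2, with deposited bounds apart between the libraries. Gata5 was at 3.74 and 3.27 TPM, the erythroid factor Gata1 at 0.47 and 0.58 TPM, and Gata4 at 0.23 and 0.75 TPM (8 and 37 counts). Among the epithelium-specific ETS factors, Elf3 held 55.8% in replicate 1 and 60.4% in replicate 2, Ehf 38.5% and 34.9%, and Elf5 5.50% and 4.27%, while Spdef, a factor of goblet cells, had 5 and 6 counts. Elf3 was 1.45 times Ehf per length in replicate 1 and 1.73 times in replicate 2; by expected counts, which are not per length, Ehf had the higher mean share (49.7%, against 46.3% for Elf3), being above Elf3 in replicate 1 (1687 and 1441 counts) and close to it in replicate 2 (1690 and 1714 counts). The OVOL family was nearly Ovol1 alone, with 93.8% in replicate 1 and 91.9% in replicate 2. Ovol2, which in mouse collecting duct has been tied to Grhl2, was at 0.88 TPM in replicate 1 and 1.03 TPM in replicate 2, and Ovol3 had 0 and 1 counts, where 3 counts would be 0.207 and 0.190 TPM.

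In the other 3 families the member had company. Grhl2 held 59.4% of the grainyhead-like TPM in replicate 1 and 51.6% in replicate 2, Grhl1 17.6% and 17.2%. The remainder was Grhl3, a factor of bladder and skin surface cells, at 2.91 TPM in replicate 1 and 4.13 TPM in replicate 2. Its deposited bounds were apart between the libraries, with replicate 1 lower, as were those of Ubp1 below. Tfcp2l1 held 39.8% of its family in replicate 1 and 37.9% in replicate 2, beside the widely used Tfcp2 (20.9 and 19.8 TPM) and Ubp1 (22.1 and 24.4 TPM). By expected counts, which are not per length, its mean share was 61.4%, against 38.8% by TPM. Emx2 held 68.0% in replicate 1 and 60.2% in replicate 2, and Emx1, best known from the cerebral cortex, was at 14.7 and 16.5 TPM. Emx2 was higher in replicate 1 and Emx1 higher in replicate 2.

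**Figure D2:**
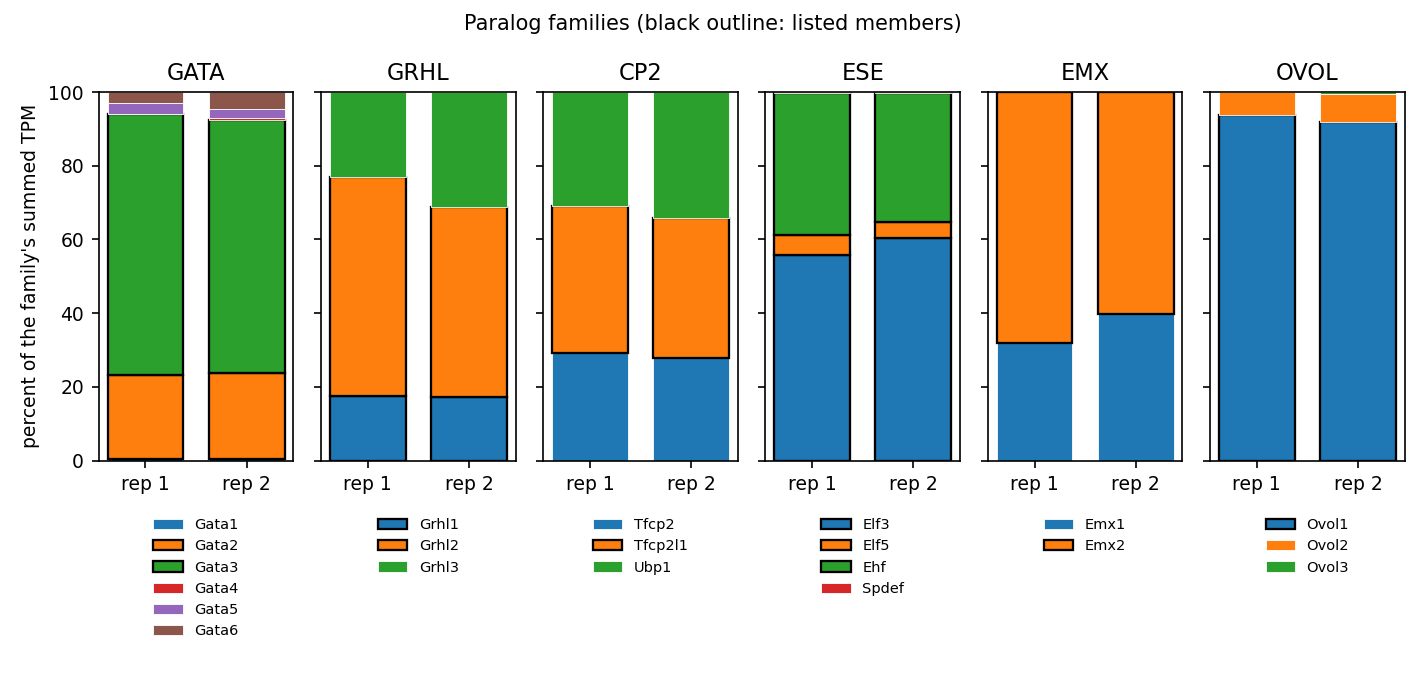
Share of each gene in the summed TPM of its paralog family, in percent, as stacked bars for replicate 1 and replicate 2; black outlines mark the listed members. Gata3, Ovol1, Emx2, Elf3 and Grhl2 each take most of their bar. Genes outside the list (Grhl3, Tfcp2 with Ubp1, and Emx1) hold more of the GRHL, CP2 and EMX bars than of the other bars.

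Transcripts were compared next, as the percent of a gene's TPM assigned to each model. Of 39 transcripts, 16 reached 10% of their gene in either library and 8 had 0 counts in both. The leading transcript was the same in both libraries for 9 of 9 members with more than 1 transcript, as it was for 91.5% of 10194 such genes. For 4 members 1 model took nearly everything. Gata3-201 held 92.7% in replicate 1 and 93.1% in replicate 2, Tfcp2l1-201 90.8% and 96.4%, and Ovol1 has 1 model. Gata2-201, whose start lies 4.443 kb downstream of the distal start shown above, held 96.3% in replicate 1 and 94.4% in replicate 2. The distal model Gata2-202 held 3.66% and 5.65%; both encode the same 480 codons.

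For Emx2 most of the level sat on an incomplete model. Emx2-202, with 69 codons and a coding start not found in the annotation, held 70.4% in replicate 1 and 73.4% in replicate 2 (748 and 677 counts). It lacks the inner exon of 185 bases, and each of its 1580 exon bases is also in Emx2-201, so that its ends and 1 splice junction alone set it apart. Emx2-201, with all 253 codons and 1336 exon bases of its own, held 24.9% in replicate 1 and 26.6% in replicate 2 (503 and 466 counts). The annotation gives Emx2-202 support level 5 and Emx2-201 level 1, where 1 is the best supported. Between the libraries the deposited bounds were apart for Emx2-202 and overlapped for Emx2-201. The assignment of reads between the models therefore rests on the deposited estimate, and reads along the gene were not analysed here. Emx2 also shares 264 exon bases with Emx2os, an RNA of the opposite strand, which was at 6.02 TPM in replicate 1 and 6.48 TPM in replicate 2. No source used here says whether reads were counted by strand, so this overlap is uncertain.

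Elf3 used a pair of complete models. Elf3-202, with 371 codons, held 55.7% in replicate 1 and 63.5% in replicate 2, and Elf3-201, with 391 codons, held 40.8% and 35.5%. The models share all 1901 bases of the shorter one and differ by 60 coding bases (20 codons) in 1 exon and at the ends, with starts 130 bases apart. The deposited bounds of each model overlapped between the libraries. Ehf also used a pair, here at separate starts: Ehf-201 held 61.8% in replicate 1 and 62.9% in replicate 2, and Ehf-202, which starts 19.518 kb downstream, held 27.7% and 29.7%. Both Ehf models carry the same 300 codons. A retained-intron model, Ehf-205, held 8.89% in replicate 1 and 7.36% in replicate 2.

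The low members had wider estimates. Grhl1-202, from the first start shown above and with 618 codons, held 78.6% in replicate 1 and 85.2% in replicate 2. Grhl1-201, with 536 codons, from a start 8.466 kb downstream, held 21.4% and 14.8%, on 32.3 and 24.9 counts. Its lower bound was near 0 in both libraries, and it has 35 exon bases that Grhl1-202 lacks. Grhl2-201, with 625 codons, held 62.4% in replicate 1 and 72.4% in replicate 2, and Grhl2-205, a noncoding model from 85.367 kb downstream, held 25.1% and 16.4%. Grhl2 shares 169 exon bases with Gm16136, an antisense RNA at its start. Gm16136 stood at 12.5 TPM in replicate 1 and 11.9 TPM in replicate 2, above Grhl2 itself on the same per-length scale. By counts it was below Grhl2 (248 against 690 in replicate 1, 262 against 724 in replicate 2). As for Emx2, counting by strand is not known, so this overlap is uncertain too. Elf5-201 led in both libraries with 54.9% in replicate 1 and 96.7% in replicate 2, and Elf5-203, an incomplete model of 658 bases, held 37.5% and 0% (16.2 and 0 counts). The bounds of Elf5-203 overlapped between the libraries, so the depth does not show a difference in Elf5 transcripts. The distal start of Elf5 held 4.07% in replicate 1 and 3.26% in replicate 2, all on a retained-intron model.

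**Figure D3:**
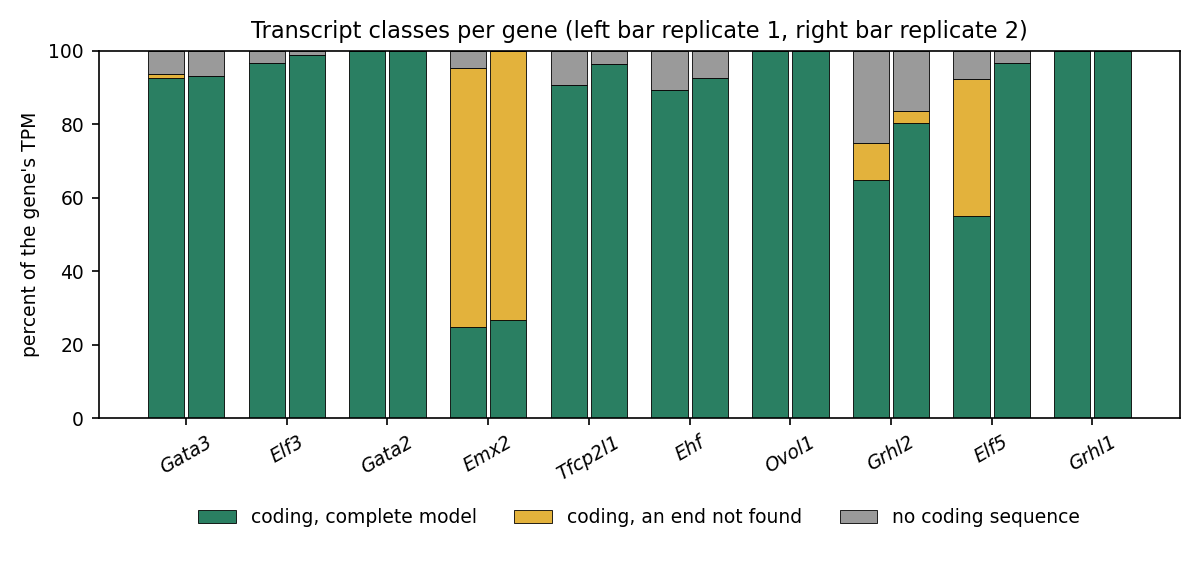
Percent of each gene's TPM on coding models with both ends found, on coding models with an end not found, and on models with no coding sequence, stacked, with replicate 1 left and replicate 2 right for each gene. Emx2 is the gene in which the complete coding share is smallest in both libraries (24.9% and 26.6%); Elf5 shows an incomplete share in replicate 1 only, on 16.2 counts.

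Counting only complete coding models changed the order at Emx2 and at the low end. Emx2 was then at 7.78 TPM in replicate 1 and 6.64 TPM in replicate 2 and took place 7 instead of 4, between Ovol1 and Grhl2. Elf5 was at 1.85 TPM in replicate 1 and 2.54 TPM in replicate 2, and changed places with Grhl1, with ranges that overlapped. The other members kept at least 64.7% of their TPM in each library, with Gata3 at 89.1 TPM in replicate 1 and 80.3 TPM in replicate 2. Of 9 neighbouring pairs, 8 now had ranges apart. This count of complete models was chosen after the data had been seen.

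Other annotated genes touch the members. Gata3 shares 77 exon bases with 9230102O04Rik on its own strand, which was at 5.50 TPM in replicate 1 and 6.03 TPM in replicate 2, and 155 exon bases with the antisense Gm13256, at 1.45 and 0.57 TPM. Without overlap of exons, 4930412O13Rik on the other strand was at 2.60 TPM in replicate 1 and 2.36 TPM in replicate 2. Each of these lay far below Gata3. Elf3 shares 162 exon bases with the antisense Gm26642, at 0.27 TPM in replicate 1 and 0.16 TPM in replicate 2. The small RNA, pseudogene and other antisense entries within Tfcp2l1 and Grhl2 had at most 5 counts in either library. Gm38708 near Gata2, and Gm31166 and AC126029.1 at Ovol1, were not analysed here.

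The pools were then compared gene by gene, as the log2 ratio of replicate 1 over replicate 2 after TMM scaling. None of the 10 members passed 1.5-fold, against 5.81% of 15363 genes. The ratio was highest for Emx2 (0.26) and Gata3 (0.15) and lowest for Elf5 (-0.14) and Elf3 (-0.13), with a median of 0.07 over the members and -0.01 over all genes. Scaling to the spike-ins moved the median of all genes to -0.43 and put every member below 0, between -0.55 and -0.16, so directions here are relative to the other mouse genes. The deposited bounds were apart between the libraries for 2 of 10 members, Gata3 and Emx2, and for 21.2% of genes at 1 TPM in both, so that the members' share is near the background. By TPM, 8 of 10 members were higher in replicate 1, and 48.3% of the genes were; Elf3 and Grhl1 were lower. Tfcp2l1 and Elf5 were among the 8 by TPM but had ratios below 0 after TMM scaling. For Tfcp2l1 that ratio was only -0.01, and its CPM was higher in replicate 1 (159.2, against 157.2 in replicate 2). For Elf5 the CPM values were 3.44 in replicate 1 and 3.72 in replicate 2, with the short model Elf5-203 present in replicate 1. The coefficient of variation between the pools ran from 1.89% for Grhl1 to 17.7% for Elf5, with a median of 5.37% over detected coding genes.

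Chromaffin and urothelial markers differed between the pools beside these ratios, and the lung genes Sftpc (-8.52) and Sftpb (-5.15) differed most. Among the chromaffin genes Th, the first enzyme of catecholamine synthesis, was at 11.5 TPM in replicate 1 and 5.49 TPM in replicate 2. Chga was at 11.2 and 4.50 TPM and Slc18a1 at 14.3 and 13.6 TPM. Of 6 tested, 4 passed 1.5-fold, all higher in replicate 1. By the same log2 ratio the members Emx2 (0.26), Gata3 (0.15), Ehf (0.12), Ovol1 (0.11), Gata2 (0.09) and Grhl2 (0.05) were higher there to a smaller extent. Among the urothelial genes Upk1b was at 9.81 TPM in replicate 1 and 19.9 TPM in replicate 2, and Upk1a at 7.06 and 11.9 TPM. Upk3a was at 53.5 and 62.3 TPM, while Krt5, a basal cell keratin, was at 0.21 and 0.57 TPM. Of 6 tested, 3 passed 1.5-fold, all lower in replicate 1. By that ratio the members Elf5 (-0.14), Elf3 (-0.13) and Grhl1 (-0.05) were lower there to a smaller extent. Tfcp2l1 (-0.01) was level with the median of all genes (-0.01). By TPM, Tfcp2l1 and Elf5 were higher in replicate 1. With scaling to the spike-ins, 3 chromaffin and 4 urothelial genes passed. After TMM scaling, median log2 ratios were 0.17 for kidney identity, 0.09 for ureteric trunk and 0.07 for ureteric tip genes. They were -0.13 for principal cell, -0.18 for intercalated cell, -0.08 for epithelial barrier and -0.04 for endothelial genes. Apart from Emx2 (0.26), the ratios of the members lay within the span of these medians. The part of chromaffin, urothelial and lung cells in the ratios of the members was not tested.

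**Figure D4:**
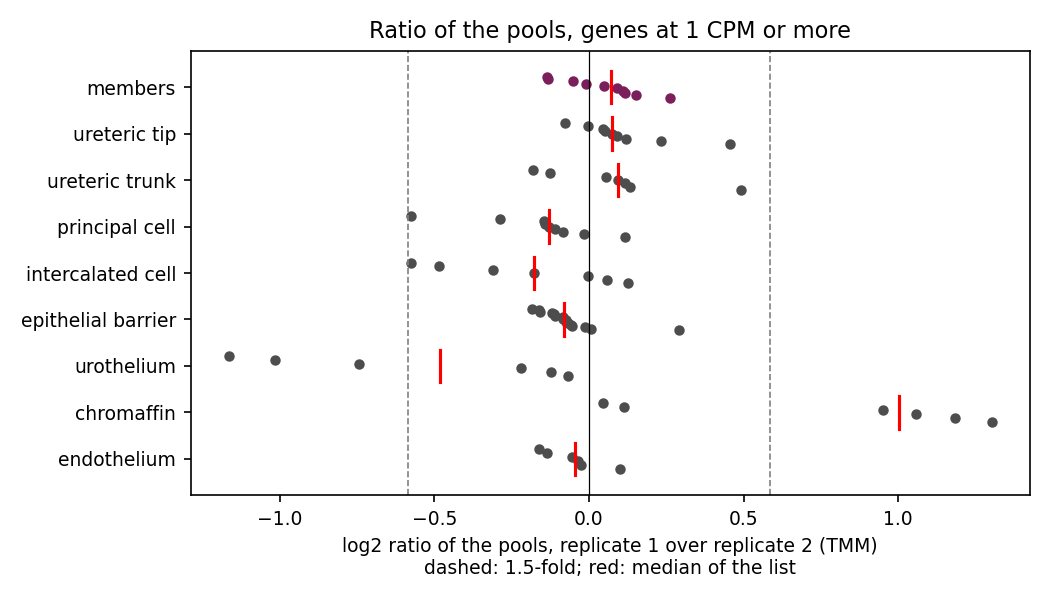
Log2 ratio of replicate 1 over replicate 2 after TMM scaling for the members and for genes of 8 companion lists at 1 CPM or more; points are genes, red lines list medians, dashed lines 1.5-fold. The members lie between -0.14 and 0.26, inside the dashed lines, while 4 chromaffin genes lie above them and 3 urothelial genes below. The lung and gut list is not drawn. Its 2 tested genes, Sftpc (-8.52) and Sftpb (-5.15), differed more than any gene drawn.

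Genes listed for the ureteric epithelium are given beside these levels. Whole kidney was used, so other cells may add to the level of a listed gene. Their part, such as that of erythroid cells in Slc4a1 or of nephron cells in Cdh16, Calb1 and Gfra1, was not tested. All 9 tip genes were detected: Gfra1 led with 61.1 TPM in replicate 1 and 56.4 TPM in replicate 2, followed by Etv5 (53.0 and 50.4 TPM) and Etv4 (51.7 and 42.8 TPM), the ETS factors switched on by Ret, and Sox8 was lowest (4.50 and 3.12 TPM). All 7 trunk genes were detected, led by the cadherin gene Cdh16 (216.9 and 245.8 TPM), the calcium buffer gene Calb1 (139.2 and 131.2 TPM) and Hoxb7 (55.9 and 51.2 TPM), with Wnt9b lowest (8.22 and 7.50 TPM). All 9 principal cell genes were detected. The water channel gene Aqp2 was at 89.6 TPM in replicate 1 and 133.6 TPM in replicate 2, a log2 ratio of -0.58; Scnn1b was at 44.7 and 49.4 TPM, Aqp3 at 45.2 and 47.7 TPM and Aqp4 at 4.02 and 4.45 TPM. Of 8 intercalated cell genes 7 were detected: Foxi1, their defining factor, at 23.1 TPM in replicate 1 and 21.2 TPM in replicate 2, Atp6v1b1 at 8.13 and 10.1 TPM and Slc4a1 at 7.85 and 7.54 TPM, while Aqp6 had 4 and 2 counts. Elf5 thus lay below the lowest principal cell gene, Aqp4, in both libraries.

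All 16 genes of the epithelial barrier list were detected. Krt8 was at 239.0 TPM in replicate 1 and 257.7 TPM in replicate 2, the protease inhibitor gene Spint2 at 210.0 and 235.6 TPM and Epcam at 212.2 and 221.1 TPM, and Esrp1, an epithelial splicing factor, was lowest at 14.2 and 14.4 TPM. The list's median was 67.6 TPM in replicate 1 and 72.2 TPM in replicate 2, above every broad epithelial factor. All 9 genes of general kidney identity were detected, with Slc34a1 (217.5 and 240.0 TPM), Pax8 (131.0 and 112.4 TPM) and Wt1 (116.2 and 104.4 TPM) highest and Nphs1 (4.46 and 4.97 TPM) lowest. Pax2 and Lhx1 stand in this list and in the trunk list.

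Lists of other cells that use a member or its paralog were measured beside it. Endothelium, in which Gata2 is active, was present with 6 of 6 genes, led by Egfl7 (211.1 and 224.0 TPM), Emcn (83.4 and 82.3 TPM) and Pecam1 (61.8 and 62.9 TPM), with Cdh5 lowest (34.1 and 31.9 TPM); the part of endothelium in the level of Gata2 was not tested. Mast cells, which also use Gata2, had 4 of 5 genes detected but summed to 7.86 TPM in replicate 1 and 7.79 TPM in replicate 2, with Ms4a2 at 2.49 and 2.22 TPM, Cpa3 at 1.94 and 1.87 TPM, Cma1 at 1.61 and 1.93 TPM and Mcpt4 at 0.05 TPM in both. Erythroid cells had 4 of 5 genes detected, with Hbb-bs at 5052 TPM in replicate 1 and 4882 TPM in replicate 2, Hba-a1 at 3665 and 3514 TPM and Alas2 at 62.7 and 69.0 TPM; Gata1, in this list and in the GATA family, was lowest. T cells, which use Gata3, had 1 of 5 genes detected: Lck at 8.90 TPM in replicate 1 and 10.97 TPM in replicate 2, while Cd3e, Cd3g and Cd3d had at most 1 count and Il7r 3 and 17 counts. Of 5 keratinocyte genes, none reached 1 TPM in both libraries: Krt14 was at 0.78 TPM in replicate 1 and 1.44 TPM in replicate 2, Lor at 0.52 and 0.57 TPM, Krt1 at 0.63 and 0.44 TPM, and Dsg3 was at 0 counts in both.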

How the data were processed

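Total RNA-seq of 1 group, kidney at embryonic day 16.5, was analysed in 2 libraries. Assembly mm10 and annotation M4 are named per the deposited text notes; no source used here names the alignment or quantification tools or the strandedness. The authors deposited expected counts (estimated counts, with shared reads divided among features), TPM and posterior mean TPM (per length, scaled over all entries), FPKM, lower and upper TPM bounds (a signal on the TPM scale) and the percent of each gene's TPM on each transcript. No source used here gives the level of the bounds. The labels call the libraries biological replicates and give no separate donors, so spreads measure only the difference between these pools, which may be technical.

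From these, order, ranges, family shares, transcript shares and list counts were computed in Python 3.11.15 with numpy 2.4.6 and pandas 2.3.3, and figures with matplotlib 3.10.9. For ratios of the pools, expected counts of mouse genes were rounded to whole numbers, scaled by TMM and set on a log2 scale with a prior count of 2 in edgeR 4.0.16 (R 4.3.3), over genes at a mean of 1 CPM or more; DESeq2 1.42.0 size factors were an alternative. The ratio code was tested on simulated data. Spike-ins (2.82% and 2.08% of counts) and entries that name no mouse gene were left out. Gene names, coordinates, exons and coding sequences came by identifier from GENCODE M21 on GRCm38, which held 42462 of 43346 mouse genes, and 35 of the members' 39 transcripts had the same length there. Promoter windows came from RefSeq (GRCm38.p6), cut to bases outside annotated exons.

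Genes were named by rule: all members and their paralogs, up to 3 highest and the lowest gene of each of 14 companion lists, genes that overlap a member or start within 5 kb of its start, and transcripts at 10% or more of a member. Some T cell genes and some transcripts under 10% were named after their values were seen. One item taken by the rule is not reported here. Members and lists were chosen with earlier results of these data known. Likeness of patterns was not ranked, since 2 libraries of 1 condition give none. Values are mean ± SD of 2 libraries (n = 2). Alternatives covered the unit, the detection threshold, scaling, prior count, filters and leaving out each library. Floors of 3 counts cover counting error only.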

Additional observations from a re-analysis of the deposited data

How the results depend on the processing

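All 10 members stayed detected except at 5 TPM, where 8 were (not Elf5 and Grhl1). None passed 1.5-fold, although a mean of 5 CPM left Elf5 and Grhl1 out, and 9 of 9 had 1 leading transcript for both libraries, under the alternatives run. Spike-in scaling moved the median log2 ratio of all genes to -0.43, and the members then lay between -0.55 and -0.16. It put past 1.5-fold 1 trunk, 2 principal cell, 4 intercalated cell, 2 barrier, 1 kidney identity, 2 mast cell and 1 T cell gene, where TMM put 0 in each, and 3 chromaffin and 4 urothelial genes, where TMM put 4 and 3; DESeq2 size factors put 1 principal cell gene there. Means in place of medians gave 49.8 TPM for the bud class and 16.1 TPM for the broad class. With expected counts, not per length, the family shares were Gata2 24.3%, Grhl1 16.0%, Grhl2 63.7%, Tfcp2l1 61.4%, Elf3 46.3%, Elf5 3.801%, Ehf 49.7%, Emx2 70.1% and Ovol1 96.3%; with posterior mean TPM Gata2 held 22.6%, Grhl1 16.9% and Ovol1 91.0%. Detected were 1 mast cell gene at 2 TPM, 2 keratinocyte genes at 0.5 TPM and, without replicate 1, 3 lung and gut genes and 1 keratinocyte gene, where both libraries gave 0. Without either library 2 members changed places, and the count of neighbouring ranges apart could not be computed. The complete coding models gave 8 such pairs in place of 7. No paired analysis was possible because there is 1 group. Depth limits Elf5 (118 and 141 counts), Grhl1 (167 and 188 counts) and their transcripts most.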
